A study of Canis lupus familiaris with 2 samples.

Results

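The 42 genes described here encode the machinery that makes ribosomes in the nucleolus, together with MYC and its partner MAX. They were chosen by symbol, from a list that covers RNA polymerase I, the small nucleolar ribonucleoproteins (snoRNPs) and the processing factors of both ribosomal subunits. All 42 symbols were found among the 23510 features of the deposited tables, and all 42 were listed above 1 FPKM at both medium heights. MDCK cells, an established dog kidney line with a columnar epithelial shape, were grown in EMEM with serum on the membrane of a culture insert, in a two-chamber system where the height of the medium sets the water pressure. The label of the 2-cm-high-medium culture (2 cmH2O) describes it as free of pressure, and the 50-cm-high-medium culture carried 50 cmH2O. Both were labelled day 3, and each medium height was represented by 1 sequenced culture, so no value below has a replicate and no difference could be set against replicate error.

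Ribosome production begins when RNA polymerase I, recruited by UBTF and RRN3, transcribes the ribosomal RNA precursor. Guide snoRNPs then modify that precursor, and a large set of processing factors cleaves and folds it into the small (40S) and large (60S) subunits. MYC, which binds DNA as a dimer with MAX, is known to activate transcription of many genes of this machinery, and the size of the nucleolus has long been used as a sign of cell growth. The comparison asks how RNAs of this growth program differed between the cultures, given that the study examined slowed cell growth under pressure. FPKM, the unit of the deposited tables, counts fragments on a gene scaled by exon length and by the size of the library, so levels of different genes can be compared. It is a relative unit, and in a bulk culture a change in the RNA per cell and a change in the share of cells that express a gene cannot be told apart.

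All 42 genes had a higher FPKM value in 50-cm-high medium than in 2-cm-high medium. Among the 11057 features listed above 1 FPKM at both heights, 52.6% were higher in 50-cm-high medium. The median log2 ratio (50-cm over 2-cm) of the 42 genes was 0.38, a ratio of 1.304, whereas the median over the 11057 features was 0.015. The differences were modest in size and ran from 1.01-fold for NHP2 to 1.71-fold for NOC4L. Of the 42 genes, 24 were more than 25% higher at 50 cm, against 10.5% of all features, and none lay below a ratio of 0.8, where 13.3% of all features lay. A ratio of 1.5 was exceeded by 6 genes, namely NOC4L, DDX21, RRS1, NOP2, RRP9 and MYC, against 2.13% of all features. A change of more than 2-fold either way was found for none of the 42 genes and for 1.67% of all features. With 1 culture per height, these shares describe this pair of cultures and carry no p-value. The study applied the same cutoffs and reports more genes past them than were found here. The reason for that difference was not tested.

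**Figure D1:**
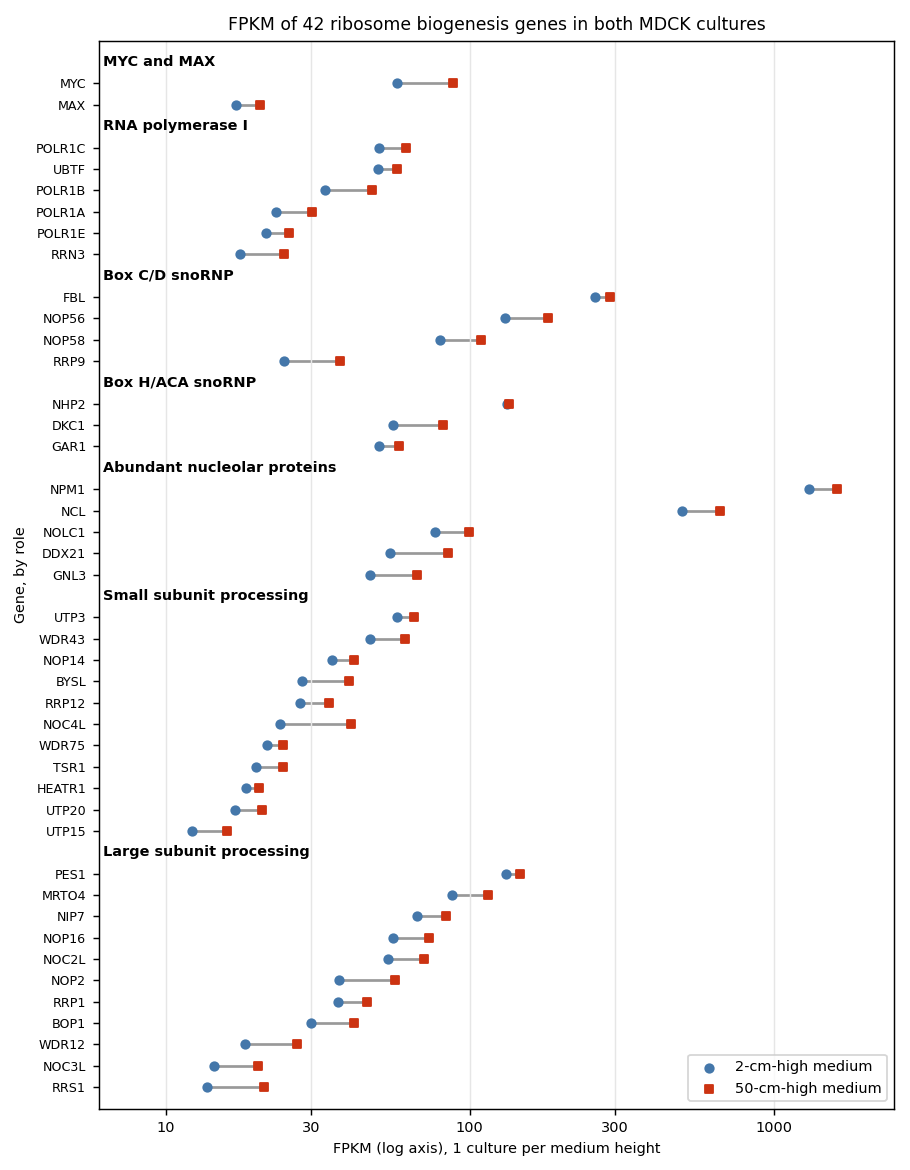
FPKM of the 42 genes on a log axis, grouped by role, with a blue circle for the 2-cm-high-medium culture and a red square for the 50-cm-high-medium culture (1 culture each, so no error bars). The red square lies to the right of the blue circle for every gene, and the 2 symbols nearly coincide for NHP2.

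The genes spanned more than 100-fold in level, and the geometric mean of both cultures ran from 13.9 FPKM to 1453 FPKM. Over the 5998 features within that range, 61.4% were higher in 50-cm-high medium, 11.0% were more than 25% higher and the median log2 ratio was 0.056. The log2 ratio showed little relation to level across the 42 genes (Pearson r = -0.17, Spearman rho = -0.090), which share the same 2 libraries and are not independent. The 21 genes of lower level had a median log2 ratio of 0.39, and the 21 genes of higher level one of 0.38. As a yardstick for single genes, each log2 ratio was set against the 500 features nearest in mean log2 FPKM, in units of their scaled median absolute deviation, which measures the spread across genes and not replicate error. On this scale 16 of the 42 genes lay more than 2 deviations above the median of their neighbours, against 4.07% of all features. NOC4L was the farthest at 3.43 deviations, and NHP2, at -0.35, was the only gene below its neighbours' median.

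**Figure D2:**
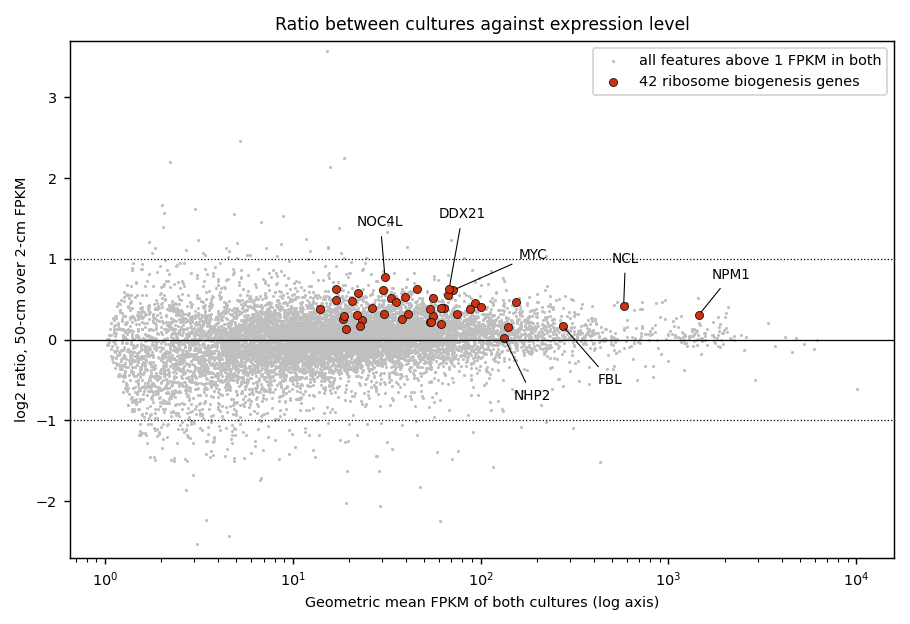
The log2 ratio between the cultures (50-cm over 2-cm FPKM) against the geometric mean FPKM of both cultures (log axis), with all 11057 features in grey and the 42 ribosome biogenesis genes in red; dotted lines mark 2-fold. The red points lie above 0 at every level, within 2-fold, from 0.021 for NHP2 to 0.78 for NOC4L.

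MYC had 57.7 FPKM at 2 cm and 88.0 FPKM at 50 cm. This was a ratio of 1.53, the rank of 209 among the 11057 features, and lay 2.96 deviations above the median of features of similar level. MAX had 17.0 and 20.3 FPKM, a ratio of 1.19, so that the FPKM of MYC was 3.38 times that of MAX at 2 cm and 4.33 times at 50 cm. In a list of 15 other genes of the MYC network, the ratios lay on both sides of 1. Of its 12 genes above 1 FPKM at both heights, 7 were higher in 50-cm-high medium (58.3%, against 52.6% of all features) and 5 lower. Their median log2 ratio was 0.030, which became -0.0021 as shares of the summed FPKM. Among genes whose products compete with MYC for MAX, the ratios also lay on both sides of 1. MXD4 had 2.31 and 1.86 FPKM (ratio 0.806), the lowest ratio of the 12 as deposited, but its log2 ratio of -0.31 became -0.11 after quantile normalization. MXI1 had 17.6 and 14.9 FPKM (ratio 0.845), and its log2 ratio was below that of MXD4 with a pseudocount of 1 and after quantile normalization. MNT had 7.86 and 7.51 FPKM (ratio 0.956). MXD3 had 3.99 and 4.09 FPKM (ratio 1.02), and MXD1, which was below 1 FPKM at 2 cm, had 0.901 and 1.08 FPKM. MLXIPL, of the related network around MLX, was below 1 FPKM at 50 cm and was not among the 12, with 2.25 and 0.562 FPKM. FBXW7, the ubiquitin ligase subunit that marks MYC protein for degradation, had the highest ratio of the 12, with 6.65 and 7.97 FPKM (ratio 1.20). MYCN, the neuronal relative of MYC, was listed at 0 FPKM in both cultures.

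All 6 RNA polymerase I genes were higher in 50-cm-high medium, where 52.6% of all features were. By more than 25%, 3 of the 6 were higher (50%, against 10.5% of all features), and the median log2 ratio was 0.34. The second largest subunit, POLR1B, had 33.2 FPKM at 2 cm and 47.7 FPKM at 50 cm (ratio 1.44), and the largest subunit, POLR1A, had 22.97 and 30.2 FPKM (ratio 1.31). RRN3, the initiation factor that brings the polymerase to the promoter, went from 17.6 to 24.5 FPKM (ratio 1.39). These 3 were the genes of the group more than 25% higher. The ratios of the other members were smaller. POLR1C, a subunit shared with RNA polymerase III, had 50.3 and 61.5 FPKM (ratio 1.22). POLR1E had 21.4 and 25.3 FPKM (ratio 1.18), and UBTF, the upstream binding factor, 49.7 and 57.6 FPKM (ratio 1.16). Of 16 further genes of the same machinery, among them subunits shared with the other polymerases, 15 were found. All 15 were higher in 50-cm-high medium, and 5 were more than 25% higher (33.3%, against 10.5% of all features). The median log2 ratio of the 15 was 0.24. CD3EAP, the gene of another polymerase I subunit, stood at their head with 12.4 and 23.4 FPKM (ratio 1.88), higher than the ratio of any of the 42 genes.

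The other nuclear polymerases were compared through the subunits that are not shared. Of 6 RNA polymerase II subunit genes, 5 were higher in 50-cm-high medium (83.3%, against 52.6% of all features). By more than 25%, 1 was higher (16.7%, against 10.5% of all features), and the median log2 ratio was 0.11. The largest subunit, POLR2A, had 24.1 and 30.8 FPKM (ratio 1.28), and POLR2G had 113.4 and 108.8 FPKM (ratio 0.959). RNA polymerase III serves transcription of 5S ribosomal RNA and transfer RNAs. Of 9 genes of its subunits, 8 were higher (88.9%) and 6 were higher by more than 25% (66.7%), with a median log2 ratio of 0.37. POLR3D led them with 6.79 and 11.8 FPKM (ratio 1.74). The exception was POLR3GL, with 39.8 and 34.2 FPKM (ratio 0.859), whose paralogue POLR3G had 23.1 and 27.0 FPKM (ratio 1.17). POLR3G and POLR3GL are alternative subunits of the same position in RNA polymerase III.

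Box C/D snoRNPs guide methylation of ribosomal RNA, and FBL (fibrillarin), NOP56 and NOP58 are core proteins of them. NOP56 had 131 FPKM at 2 cm and 180 FPKM at 50 cm (ratio 1.38), and NOP58 had 79.6 and 108 FPKM (ratio 1.36). FBL, the methyltransferase itself, was the most abundant of the group but differed least, with 259 and 291 FPKM (ratio 1.12). RRP9, which binds the U3 snoRNA that is needed for cleavage of the precursor, had 24.4 and 37.4 FPKM (ratio 1.54). In the box H/ACA snoRNPs, which guide pseudouridylation, the pseudouridine synthase DKC1 had 55.7 and 81.6 FPKM (ratio 1.47). GAR1 had 50.3 and 58.3 FPKM (ratio 1.16). NHP2 had 132.7 and 134.7 FPKM (ratio 1.01), and this was the only one of the 42 genes whose direction depended on the scaling, since its log2 ratio of 0.021 became -0.011 when values were expressed as shares of the summed FPKM and -0.049 after quantile normalization. All 14 genes of a further list of snoRNP assembly factors and partners were higher in 50-cm-high medium as deposited, where 52.6% of all features were. Of the 14, 5 were more than 25% higher (35.7%, against 10.5% of all features), and the median log2 ratio was 0.22. NUFIP1, an assembly factor of box C/D particles, had the highest ratio (1.44, from 15.1 to 21.8 FPKM). ZNHIT3 had the lowest (1.03, from 79.3 to 81.8 FPKM), and its log2 ratio of 0.045 became -0.0096 after quantile normalization.

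The 5 genes of abundant nucleolar proteins supplied 53.2% of the FPKM that the 42 genes gained in sum. NPM1 (nucleophosmin), a chaperone of ribosome assembly, had 1306 FPKM at 2 cm and 1615 FPKM at 50 cm (ratio 1.24). NCL (nucleolin) had 500.5 and 666 FPKM (ratio 1.33). NPM1 and NCL alone made up 46.1% of that gain. NPM1 is known to have processed copies in mammalian genomes, and the handling of reads that match several near-identical sequences is not given in the sources used here. DDX21, an RNA helicase that acts with RNA polymerase I and in processing, had 54.7 and 84.6 FPKM (ratio 1.55). GNL3 (nucleostemin), a nucleolar GTPase, had 46.9 and 66.9 FPKM (ratio 1.43), and NOLC1, a chaperone of snoRNPs, 76.8 and 99.4 FPKM (ratio 1.29). The summed FPKM of the 42 genes was 3841 at 2 cm and 4869 at 50 cm (ratio 1.27), or 0.640% and 0.793% of the summed FPKM of each table. Without NPM1 the ratio of the sums was 1.28.

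The 11 genes of small subunit processing had a median log2 ratio of 0.30. By more than 25%, 4 of them were higher (36.4%, against 10.5% of all features). NOC4L had the highest ratio of the 42 genes, with 23.7 FPKM at 2 cm and 40.5 FPKM at 50 cm (ratio 1.71, rank 105 of 11057). Its binding partner NOP14 had 35.1 and 41.7 FPKM (ratio 1.19). BYSL (bystin), which stays with the 40S precursor until late in its maturation, had 27.99 and 39.98 FPKM (ratio 1.43). The members of the UTP-A subcomplex, which loads first on the nascent precursor, were uneven. UTP15 had 12.2 and 15.9 FPKM and WDR43 had 47.0 and 61.0 FPKM, with ratios of 1.298 and 1.299, whereas WDR75 had 21.5 and 24.2 FPKM (ratio 1.13). HEATR1, of the same subcomplex, had 18.4 and 20.2 FPKM (ratio 1.10), the lowest of the 11 genes. The ratios of the other members lay between these. RRP12, an export factor of the precursor, had 27.5 and 34.4 FPKM (ratio 1.249), and TSR1, a late maturation factor, 19.7 and 24.4 FPKM (ratio 1.23). UTP20 had 16.9 and 20.7 FPKM (ratio 1.23), and UTP3 had 57.5 and 65.6 FPKM (ratio 1.14).

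The 11 genes of large subunit processing had a median log2 ratio of 0.40. By more than 25%, 8 of them were higher (72.7%, against 10.5% of all features). RRS1, which brings the 5S particle into the 60S precursor, had 13.6 and 20.9 FPKM (ratio 1.54). NOP2, a methyltransferase of the large ribosomal RNA, had 37.0 and 56.9 FPKM (ratio 1.54). The PeBoW complex, which is needed to process that RNA, differed among its subunits. WDR12 had 18.2 and 27.1 FPKM (ratio 1.49) and BOP1 had 30.1 and 41.6 FPKM (ratio 1.38), but PES1, the most abundant of the 3, had 132 and 147 FPKM (ratio 1.11). NOC3L had 14.3 and 20.1 FPKM (ratio 1.40), and NOC2L, its partner on the 60S precursor, 53.8 and 70.5 FPKM (ratio 1.31). MRTO4, which holds the place of a stalk protein on the precursor, had 87.4 and 115 FPKM (ratio 1.32), and NOP16 had 55.8 and 73.4 FPKM (ratio 1.32). RRP1 and NIP7 completed the group, with 36.7 and 45.9 FPKM (ratio 1.2499) and with 67.1 and 83.4 FPKM (ratio 1.24). PES1 had the lowest ratio of the group.

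Partners that work in fixed complexes did not have equal RNA levels, and in several complexes the levels lay closer together in 50-cm-high medium. These complexes were picked after the values had been seen. In PeBoW, the FPKM of PES1 was 7.27 times that of WDR12 at 2 cm and 5.42 times at 50 cm. Among the box C/D core proteins, with NHP2L1 added as the fourth (64.0 and 86.4 FPKM, ratio 1.349), the FPKM of FBL was 4.04 and 3.36 times that of NHP2L1. In the box H/ACA core, NOP10 was the highest with 177 and 193 FPKM (ratio 1.09), which was 3.51 and 3.31 times the FPKM of GAR1. The pair of NOP14 and NOC4L went from 1.483-fold apart to 1.03-fold apart, and NOC2L over NOC3L from 3.75-fold to 3.50-fold. POLR1B over POLR1A went the other way, from 1.45-fold to 1.58-fold, as did MYC over MAX, from 3.38-fold to 4.33-fold. No replicate is available to give these ratios an error. In the RefSeq annotation described below, BOP1, PES1, WDR12, GAR1, NOC2L, NOC3L, NOP14 and POLR1A each overlap another protein-coding gene. Their reads may have been shared with that gene, and the effect on these ratios was not tested.

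**Figure D3:**
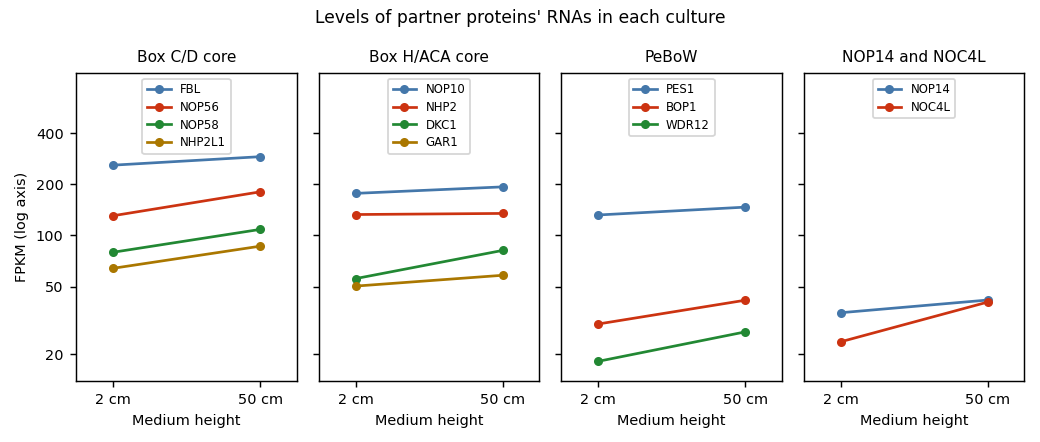
FPKM (log axis) of partner proteins' RNAs in the 2-cm-high-medium and the 50-cm-high-medium culture, 1 point per gene and culture, without replicates. The highest gene of the first 3 panels (FBL, NOP10, PES1) has a flatter line than the lowest one, and NOC4L comes level with NOP14 at 50 cm, 1.03-fold apart.

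The pattern extended to ribosome biogenesis genes beyond the 42. A wider list of 152 such genes, without the MYC network, held 149 that were listed above 1 FPKM at both heights. Of these, 142 were higher in 50-cm-high medium (95.3%, against 52.6% of all features) and 7 lower. By more than 25%, 68 were higher (45.6%, against 10.5% of all features). None lay below a ratio of 0.8, and the median log2 ratio was 0.30. The list as first planned included the MYC network. In that form 149 of 161 genes were higher (92.5%) and 12 lower, 68 were higher by more than 25% (42.2%), and the median log2 ratio was 0.29. The further genes of the small subunit processome and 40S maturation were higher in 44 of 45 cases (median log2 ratio 0.35), led by NOL6 with 15.1 and 25.8 FPKM (ratio 1.71) and SURF6 with 11.2 and 18.6 FPKM (ratio 1.66). The exception was TSR2, with 18.5 and 17.4 FPKM (ratio 0.944). The further genes of 60S maturation were higher in 50 of 51 cases (median log2 ratio 0.34). BRIX1 had 37.2 and 57.8 FPKM (ratio 1.56), RPF2 had 42.1 and 63.7 FPKM (ratio 1.51), and PWP1 had 42.3 and 63.7 FPKM (ratio 1.51). LAS1L was the exception with 28.4 and 26.5 FPKM (ratio 0.934). The exosome and RNase MRP genes, which trim and cleave the precursor, were less uniform, with 19 of 24 higher (79.2%) and a median log2 ratio of 0.24. EXOSC4, an exosome subunit, had the highest ratio (1.4796, from 35.1 to 51.9 FPKM), and POP1, of RNase MRP, the lowest (0.879, from 8.74 to 7.68 FPKM).

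The ratios of the genes of the ribosomal proteins themselves, which the processing factors assemble, lay closer to 1. Of 74 cytosolic ribosomal protein genes found by symbol, 73 lay above 1 FPKM at both heights, with a median of 1308 FPKM at 2 cm and 1387 FPKM at 50 cm. Their median log2 ratio was 0.060 and became -0.0059 after quantile normalization. As deposited, 59 were higher (80.8%, against 52.6% of all features) and 14 lower. A single one, RPL22L1, exceeded the median ratio of the 42 biogenesis genes, with 79.7 and 128 FPKM (ratio 1.60). The only other one more than 25% higher was RPL7L1, with 48.9 and 62.5 FPKM (ratio 1.28). Both were listed far below the median level of the 73 genes. The symbol pattern does not show whether a gene encodes a protein of the mature ribosome. The log2 ratios of 34 of the 42 biogenesis genes exceeded those of all genes of this list other than RPL22L1 and RPL7L1. Of 74 mitochondrial ribosomal protein genes, 63 were higher (85.1%, against 52.6% of all features). Among them 9 (12.2%, against 10.5% of all features) were higher by more than 25%. The median log2 ratio of the 74 was 0.13, with MRPL34 at the head (ratio 1.51, from 31.7 to 47.8 FPKM). The difference between these lists and the 42 genes was not tested, because each height has 1 culture.

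**Figure D4:**
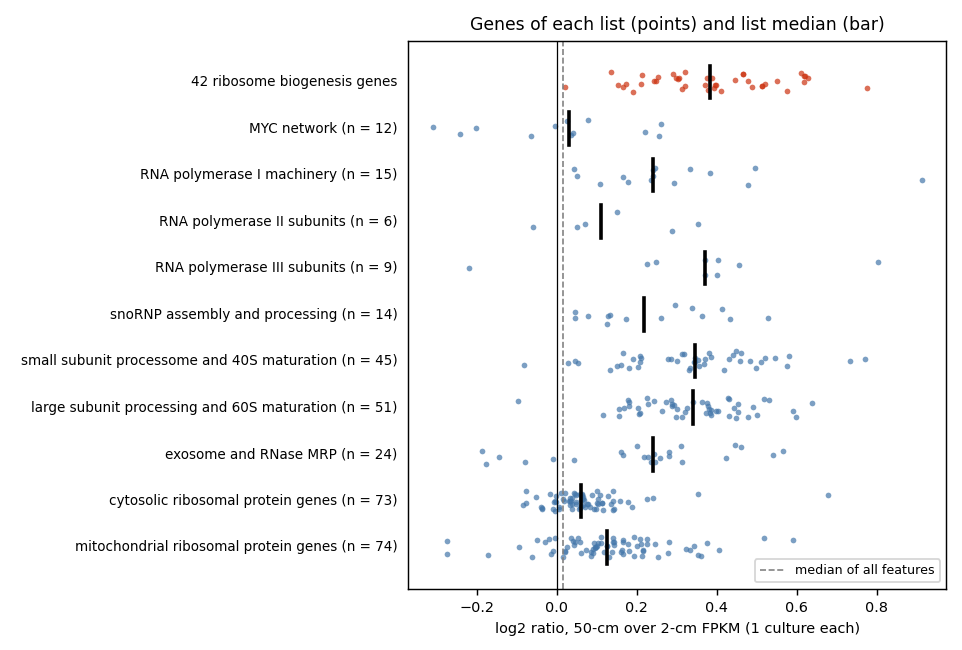
The log2 ratio between the cultures (50-cm over 2-cm FPKM) of each gene (point; vertical scatter is for visibility) in the 42 ribosome biogenesis genes (red) and in 10 related lists (blue), with the list median as a black bar and the median of all features as a dashed line. The bars of the 42 genes (0.38), RNA polymerase III (0.37) and both subunit processing lists (0.35 and 0.34) lie to the right, and the cytosolic ribosomal protein genes are packed around 0.060.

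Several of the 42 genes are hosts of small nucleolar RNA genes. In the RefSeq annotation of the dog assembly UU_Cfam_GSD_1.0, used here for gene names and neighbours and not for positions, all 42 symbols matched protein-coding genes and 7 contained an annotated snoRNA gene (16.7%). Over the 9553 protein-coding features above 1 FPKM that matched, 145 did so (1.52%). The hosts were NCL, NOP56, NOP58, DKC1, GNL3, WDR43 and TSR1, with 21 snoRNA genes among them, and their median log2 ratio was 0.45 against 0.37 for the other 35 genes. The 116 hosts that were neither among the 42 genes nor ribosomal protein genes had a median log2 ratio of 0.069. The libraries were made from mRNA, and snoRNA levels were not measured. In the same annotation 10 of the 42 genes overlapped another protein-coding gene (BOP1, GAR1, NOC2L, NOC3L, NOP14, NOP16, PES1, POLR1A, TSR1 and WDR12). The libraries were stranded, but whether counting used the strand is not given, so reads of overlapping genes may have been shared. Without these 10 genes the median log2 ratio was 0.38, and all 32 of the others were higher.

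Markers of the cells and of their division were checked beside these results. All 8 epithelial markers were above 1 FPKM in both cultures, and their ratios ran from 0.852 to 1.08. In 50-cm-high medium 2 were higher (25%, against 52.6% of all features) and 6 lower, with a median log2 ratio of -0.11. CDH1 (E-cadherin), with 211 and 229 FPKM, was among the 2, and EPCAM, with 253 and 216 FPKM, among the 6. Of 7 markers of fibroblasts, blood and endothelial cells, COL3A1, PTPRC and PECAM1 were listed at 0 in both cultures, COL1A1, PDGFRB and CDH5 stayed at or below 0.181 FPKM, and CD14 had 4.82 and 3.77 FPKM. Of 13 proliferation markers, 10 were higher in 50-cm-high medium (76.9%, against 52.6% of all features) and 3 lower. None was more than 25% higher or below a ratio of 0.8, and the median log2 ratio was 0.18. MCM3, of the replicative helicase, was the highest with 61.2 and 74.4 FPKM (ratio 1.22), and MKI67 was the lowest with 70.5 and 59.9 FPKM (ratio 0.850). The number of cells, their density and the RNA content per cell are not given for the sequenced cultures, and their part in the result was not tested.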

How the data were processed

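RNA of 1 MDCK culture in 2-cm-high medium and of 1 in 50-cm-high medium was sequenced by the authors in 75-base single-end mode from stranded mRNA libraries. The authors used TopHat 2.0.13 for mapping to the CanFam3.1 build, together with Bowtie 2 (2.2.3) and SAMtools (0.1.19 per the labels), and deposited FPKM values that Cuffnorm 2.2.1 had calculated. The annotation and the scaling are not given in the sources used here. Read depth is unknown, so no counting interval was computed.

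The log2 ratio between the cultures (50-cm over 2-cm FPKM) was taken without a pseudocount over features above 1 FPKM at both heights. With 1 culture per group no test was run. Lists are described by counts and medians beside all features. The 42 genes and all lists were chosen with earlier results of these data known. Outside the 42, the genes named are those past 1.5-fold in each list or, failing these, its highest and lowest. MXI1, MXD1, MXD3, MNT, MGA, MLXIPL, MYCN, POLR3G, POLR3GL, TSR2, LAS1L, RPL7L1, NHP2L1, NOP10, CDK4, TERT, CDH1 and the markers of other cell types were added after their values were seen. Cytosolic and mitochondrial ribosomal protein genes were found by symbol pattern. The alternatives were other FPKM minima (0, 0.1 and 5 in both, 1 in either), pseudocounts of 0.1 and 1, recentring, quantile normalization and division by the summed FPKM. Scripts were tested on simulated data. Scripts ran in Python 3.11.15 with pandas 2.3.3 and numpy 2.4.6, and matplotlib 3.10.9 drew the plots. No sequence or position is printed, because no genome of the files' build was used here.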

Additional observations from a re-analysis of the deposited data

How the results depend on the processing

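Across the 9 alternatives, the median log2 ratio of the 42 genes lay between 0.33 and 0.38, the number more than 25% higher at 50 cm between 22 and 24, and the number higher in 50-cm-high medium between 41 and 42. The number lower, 0 as deposited, became 1 after quantile normalization and also as shares of the summed FPKM. That gene was NHP2, whose log2 ratio became -0.049 and -0.011, respectively. After quantile normalization the median log2 ratio of the cytosolic ribosomal protein genes turned from 0.060 to -0.0059 and the log2 ratio of ZNHIT3 from 0.045 to -0.0096. The log2 ratio of MXD4, at about 2 FPKM, moved from -0.31 to -0.21 with a pseudocount of 1 and to -0.11 after quantile normalization. The cause was not tested. As shares of the summed FPKM the median of the MYC network turned from 0.030 to -0.0021. The medians of the other lists kept their sign and moved by less than 0.1, which was set as the limit because no replicate spread exists. For 8 of the lists, the MYC network among them, these alternatives were added after seeing the data. Leaving out the 10 genes that overlap another protein-coding gene, an alternative chosen after seeing the data, left 32 genes with a median of 0.38, of which 18 were more than 25% higher. No paired analysis was possible because each group has 1 sample, and no replicate could be left out. Library size, batch and the medium height cannot be told apart with 1 library at each height.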

Other observations

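Genes outside the nucleolus that MYC is known to activate were also mostly higher in 50-cm-high medium. Of 18 such genes, 17 were above 1 FPKM at both heights and all 17 had a ratio above 1, where 52.6% of all features did. By more than 25%, 10 were higher (58.8%, against 10.5% of all features). The median log2 ratio of the 17 was 0.37 (1 culture per height, no test). The gene left out by the minimum was TERT, which was lower at 50 cm, with 1.04 and 0.871 FPKM (ratio 0.834). SRM, which encodes spermidine synthase of the polyamine pathway, had the highest ratio, with 43.0 and 74.4 FPKM (ratio 1.73). CDK4, a kinase of the entry into the cell cycle, had the lowest of the 17, with 212 and 221 FPKM (ratio 1.05). The median log2 ratio of this list lay between 0.31 and 0.37 across the 9 alternatives.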
